A study of Mus musculus with 4 samples.

Results

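The genes described here are 10 that mark or regulate the epithelial or mesenchymal state of a cell, measured in MC38, a mouse colon carcinoma line. They were taken by symbol from the 26322 genes of the deposited expression table. Snai1, Snai2, Twist1, Twist2, Zeb1 and Zeb2 encode transcription factors, Cdh1 and Epcam encode epithelial surface proteins, and Cdh2 and Vim encode mesenchymal proteins. The level of each in the control cells and its shift after editing of Cbfb were measured by 3′ mRNA sequencing in 2 WT and 2 CbfbKO libraries. WT cells are not untreated. They were electroporated with Cas9 and a non-targeting guide (sgNT), and CbfbKO cells with Cas9 and a single guide against Cbfb (sgCbfb). Both were collected at least 1 week later. Cbfb encodes the subunit that binds the Runx transcription factors and raises their affinity for DNA. The edited cells were used as a population, and nothing in the labels says that they are a clone. The labels do not say whether replicates were separate cultures, so p-values measure only the spread between these libraries, which may be technical.

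Epithelial cells are held together by E-cadherin, the product of Cdh1, and carry the adhesion protein EpCAM on their surface. In an epithelial-mesenchymal transition (EMT), factors of the SNAIL, TWIST and ZEB families lower epithelial genes, in part by binding E-box motifs in their promoters. N-cadherin, the product of Cdh2, and the intermediate filament vimentin, the product of Vim, are the usual markers of the mesenchymal state. Carcinoma lines lie anywhere between these states, and many hold features of both.

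The libraries held between 3189035 and 3907936 reads on genes, recovered from the whole-read steps of the deposited log2 CPM (CPM are reads scaled to the total of their library, here with a prior count of 2 added before the log). A gene with no reads has a value of -0.79 on this scale, and 1 read is worth 0.256 to 0.314 CPM. The assay reads the end of each transcript, so reads do not grow with transcript length and levels can be set side by side between genes. Such comparisons are approximate, because priming and annotation of transcript ends differ between genes. The ribosomal RNA gene Rn45s took 11.3% to 13.9% of the reads. Cbfb had 295 and 285 reads in WT and 125 and 125 in CbfbKO. It fell by 1.27 on the log2 scale (SE 0.12, limma adjusted p = 1.76e-07), to 41.5% of its WT level, so transcript of the edited gene was still counted. In bulk samples, fewer cells expressing a gene and less RNA per cell cannot be told apart.

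The epithelial markers were at or near 0 in WT cells. Cdh1 (chr8:106603351-106670246, plus strand, GRCm38) had 2 and 1 reads in the WT libraries. Pooled over both, this is 3 reads of 6731308, or 0.446 CPM with an exact 95% Poisson interval of 0.0919 to 1.30 that covers counting error only. Epcam (chr17:87635979-87651129, plus strand) had 0 and 1 reads in WT, or 0.149 CPM (exact interval 0.00376 to 0.828). For the count of 0 for Epcam in WT replicate 1, an upper 95% limit alone, unlike the intervals above, is about 3 reads, or 0.883 CPM, in that library.

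The other epithelial markers were as low. A panel of 10 epithelial markers, which holds Cdh1 and Epcam, summed to 2.06 and 1.80 CPM in WT. The keratin Krt18, the claudins Cldn3 and Cldn7 and the epithelial splicing factor Esrp1 had no read in any library, and the keratin Krt8 led the panel with 2 and 4 WT reads. Of 6 colon epithelial markers, the homeobox gene Cdx1, the brush border gene Vil1, the lectin Lgals4 and the cadherin Cdh17 had no read in any library, and the panel summed to 0 and 0.300 CPM in WT. The labels give the cell type as colorectal cancer. Its defining colon and epithelial markers were thus absent or nearly absent from this RNA.

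The mesenchymal markers were present, and Vim dominated them. Vim (chr2:13573927-13582826, plus strand) had 8078 and 8437 reads in WT, a mean of 2454 CPM, which placed it at rank 18 of the 26322 genes listed. Cdh2 (chr18:16588877-16809246, minus strand) had 84 and 89 WT reads, a mean of 25.7 CPM. It lay above 60.7% of the genes with reads in WT. Between both cadherins, Cdh1 took 3 of 176 reads in WT, or 1.70% (exact binomial 95% interval 0.353% to 4.90%). Against vimentin, Epcam took 1 of 16516 reads. All 8 markers of a mesenchymal panel had reads, and the panel summed to 2565 and 2705 CPM in WT, nearly all of it Vim. The rest of the panel was uneven. The fibronectin gene Fn1 had 129 and 120 reads, but the fibroblast genes Col1a1 and Pdgfrb had only 8 and 9 and 4 and 6.

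Markers of other cells that a culture could hold were checked as well. A leukocyte panel of 4 genes summed to 0.294 and 0 CPM in WT and to 0 in both CbfbKO libraries, with 1 read on Ptprc. Its other genes, Cd3e, Lyz2 and Adgre1, had none in any library. An endothelial panel of 3 genes ranged from 0.294 to 0.600 CPM over the 4 libraries, and Kdr had no read.

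**Figure D1:**
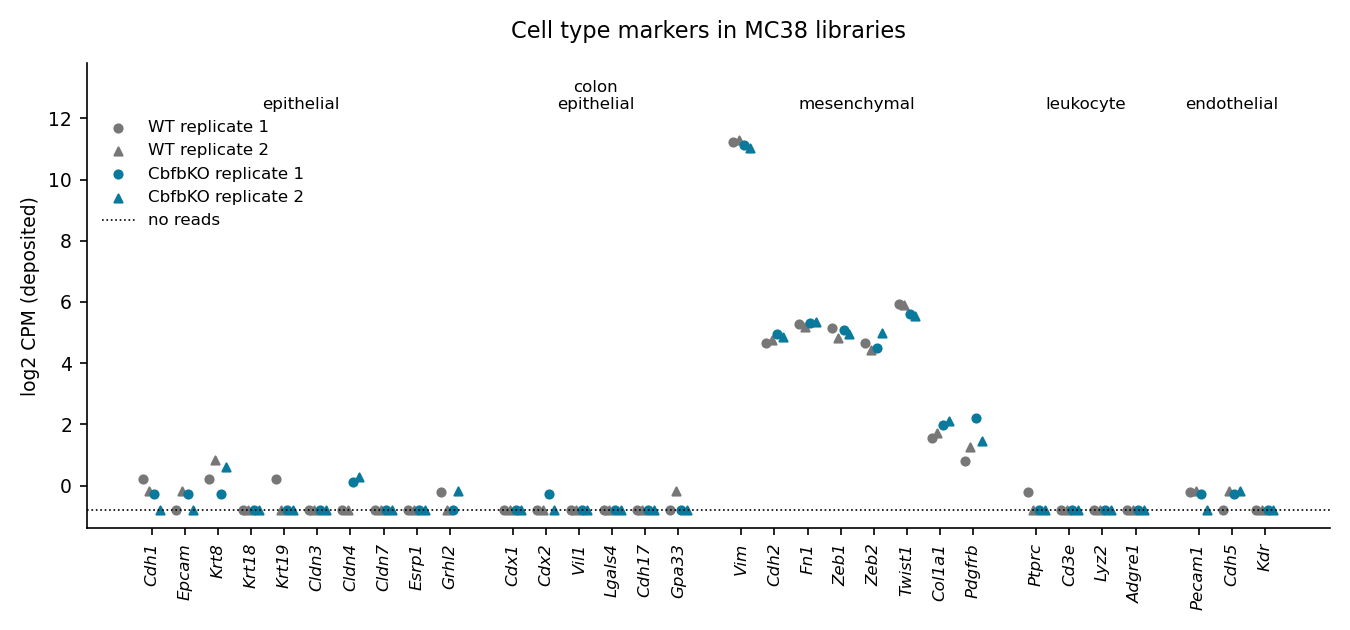
Deposited log2 CPM of each epithelial, colon epithelial, mesenchymal, leukocyte and endothelial marker in the 4 libraries, with circles for replicate 1, triangles for replicate 2, grey for WT and blue for CbfbKO. The dotted line at -0.79 is the value of a gene with no reads, where most markers lie except the mesenchymal ones.

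All 6 EMT transcription factors had reads in every library, at levels far below Vim. In WT, Twist2 (chr1:91801461-91848028, plus strand) was the highest of them at a mean of 99.5 CPM, followed by Twist1 (chr12:33957671-33959829, plus strand) at 59.4 CPM. Snai1 (chr2:167538195-167542814, plus strand) had 40.9 CPM and Zeb1 (chr18:5591860-5775467, plus strand) 31.5 CPM. Zeb2 (chr2:44983632-45117395, minus strand) had 22.9 CPM and Snai2 (chr16:14705852-14709385, plus strand) was the lowest at 9.82 CPM. The neighbours in this order did not overlap between their WT libraries. Placed among them, Cdh2 lay between Zeb1 and Zeb2 and had the same 84 reads as Zeb2 in WT replicate 1, so this pair did not differ beyond its spread. Cdh1 and Epcam shared a count of 1 read in WT replicate 2 and could not be ordered either. Twist2 lay above 86.7% of the genes with reads in WT, and Snai2 above 42.4%.

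**Figure D2:**
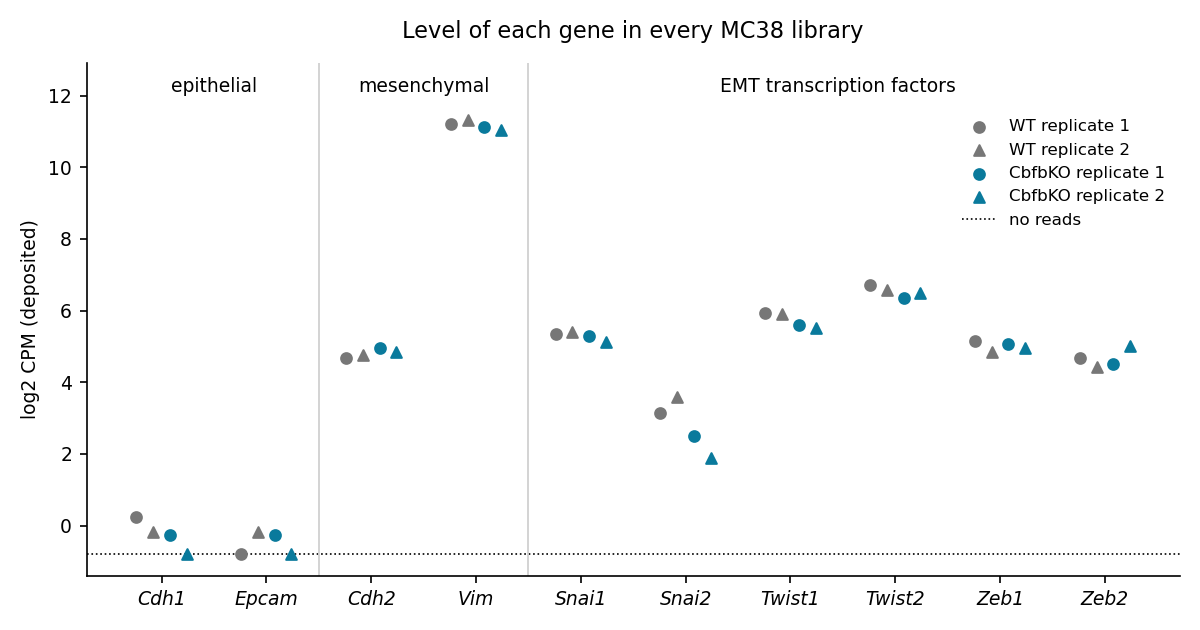
Deposited log2 CPM of the 10 genes in each of the 4 libraries, with circles for replicate 1, triangles for replicate 2, grey for WT and blue for CbfbKO. The dotted line at -0.79 is the value of a gene with no reads. Cdh1 and Epcam lie at or near it in every library, and Vim lies above 11.

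The promoters of Epcam and Snai1 are printed here, the only 2 of the genes with a window that held CACCTG. Whether SNAIL or ZEB factors act on either gene in these cells was not tested. The letters searched were CACCTG on both strands, an E-box form that SNAIL and ZEB zinc fingers are known to bind and that is contained in the wider E-box CANNTG. The windows are the 250 bases before the start of a transcript, from RefSeq on GRCm38.p6. Of the 10 genes, 6 had such a window, and these genes gave 9 windows. The match is in capitals, and CAGGTG is CACCTG read on the other strand.
Epcam, chr17:87635729-87635978, plus strand: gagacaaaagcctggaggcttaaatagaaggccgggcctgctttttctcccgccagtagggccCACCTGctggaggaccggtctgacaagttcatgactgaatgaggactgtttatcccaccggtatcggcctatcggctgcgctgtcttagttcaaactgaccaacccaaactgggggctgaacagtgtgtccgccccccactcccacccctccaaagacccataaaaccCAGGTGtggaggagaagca
Snai1, chr2:167537945-167538194, plus strand: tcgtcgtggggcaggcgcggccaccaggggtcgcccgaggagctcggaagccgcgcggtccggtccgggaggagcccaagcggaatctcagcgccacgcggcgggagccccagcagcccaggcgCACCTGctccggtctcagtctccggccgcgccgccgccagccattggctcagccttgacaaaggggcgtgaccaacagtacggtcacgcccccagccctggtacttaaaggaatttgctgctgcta
The Epcam window held the letters at 187 and 19 bases before the start, and the Snai1 window at 126 bases. The other 7 windows, of Twist1, Twist2, Vim and Zeb2, held no CACCTG. Of 32851 promoter windows of the same length, 17.2% held CACCTG. The wider CANNTG was in 66.2% of them and in 2 of the 9, again those of Epcam and Snai1. The Runx core letters TGTGGT, also on both strands, were in 14.0% of all windows and in none of the 9. The wider TGNGGT was in 40.1% of all windows and in 2 of the 9, that of Twist2 and 1 of the 4 of Zeb2. These are matches of letters, and binding was not measured.

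The shift in CbfbKO was tested with limma on the log2 CPM values of 12207 genes, kept where 2 or more libraries had a value of 0 or above. P-values were adjusted by Benjamini-Hochberg and called under 0.05. A permutation test of 1 gene over 2 against 2 libraries cannot go below an exact p of 0.333, so the calls rest on the spread that limma shares between genes. Of the 10 genes, 8 were tested. Cdh1 and Epcam were left out for low values. None of the 8 passed the threshold in either direction, where 2.83% of all tested genes did (1.57% higher and 1.25% lower in CbfbKO). Of all calls 55.7% were higher, and 42.6% with voom on median-scaled reads. By unadjusted p under 0.05, 4 were lower (Snai2, Twist1, Twist2 and Vim) and 0 were higher. Of all tested genes, 5.23% were lower by this measure and 14.9% differed in either direction. In 5 of the 8 (these 4 and Snai1) both CbfbKO libraries lay below both WT libraries, where 16.8% of all tested genes did so. Cdh2 was the only 1 of the 8 with both CbfbKO libraries above, where 27.4% of all tested genes did so. The median log2 fold change over all tested genes was 0.039.

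Snai2, which encodes the zinc finger repressor SLUG, showed the greatest difference in size. It had 28 and 38 reads in WT and 20 and 10 in CbfbKO, or log2 CPM of 3.14 and 3.58 against 2.51 and 1.89. Both CbfbKO libraries lay below both WT libraries, and CbfbKO replicate 2 was the lowest. The log2 fold change was -1.16 (SE 0.33, 95% interval -1.84 to -0.48, n = 2 per group), or 44.8% of the WT level. The limma adjusted p of 0.0548 was just over the threshold. The counts are small, and the prior count in the deposited values shrinks the difference of such a gene.

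Snai1, which encodes the related repressor SNAIL, differed less. It had 135 and 140 reads in WT and 149 and 109 in CbfbKO, or log2 CPM of 5.33 and 5.41 against 5.27 and 5.12. The CbfbKO values were lower without overlap, but close to WT. This gave a log2 fold change of -0.18 (SE 0.14, interval -0.46 to 0.11, limma adjusted p = 0.612). Of the reads on both SNAIL genes, Snai2 took 19.4% in WT (66 of 341, exact binomial interval 15.3% to 24.0%) and 10.4% in CbfbKO (30 of 288, 7.14% to 14.5%). By library the share was 17.2% and 21.3% in WT and 11.8% and 8.40% in CbfbKO, which does not overlap. These intervals cover counting error only, and the share was not tested.

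Both TWIST genes, which encode basic helix-loop-helix factors, were lower in the CbfbKO libraries without passing the threshold. Twist1 had 204 and 196 reads in WT and 188 and 145 in CbfbKO, or log2 CPM of 5.92 and 5.89 against 5.61 and 5.53. Its libraries agreed closely within each group and did not overlap between groups. Its log2 fold change was -0.34 (SE 0.12, interval -0.58 to -0.098, limma adjusted p = 0.139). Twist2 had 355 and 315 reads in WT and 319 and 286 in CbfbKO, or log2 CPM of 6.72 and 6.57 against 6.36 and 6.50. The gap between WT replicate 2 and CbfbKO replicate 2 was small. The fold change, again on the log2 scale, was -0.21 (SE 0.098, interval -0.42 to -0.012, limma adjusted p = 0.298). Twist2 took 62.6% of the reads on the pair in WT and 64.5% in CbfbKO.

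The ZEB genes, which encode zinc finger homeodomain repressors, overlapped between the groups. Zeb1 had 119 and 93 reads in WT and 129 and 97 in CbfbKO, or log2 CPM of 5.15 and 4.83 against 5.07 and 4.95. Both CbfbKO values lay within the WT range. The log2 fold change was 0.019 (SE 0.16, interval -0.30 to 0.34, limma adjusted p = 0.977), and its sign turned under 4 other scalings. Zeb2 had 84 and 70 reads in WT and 86 and 100 in CbfbKO, or log2 CPM of 4.66 and 4.43 against 4.50 and 5.0. CbfbKO replicate 2 stood above the other 3 libraries. Its log2 fold change was 0.20 (SE 0.19, interval -0.18 to 0.59, limma adjusted p = 0.689), and was -0.049 without that library. Zeb2 took 42.1% of the reads on the pair in WT and 45.1% in CbfbKO. The antisense gene Zeb2os, whose exons overlap those of Zeb2, had 4 and 3 reads in WT and 2 and 1 in CbfbKO. The sources do not state whether reads were counted by strand, so reads of such overlapping genes cannot be told apart. Exons of Gm10125, with no read in any library, overlap those of Zeb1 on the other strand, and those of Gm29100, which is not among the genes listed, overlap Twist2.

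Vim differed by little, with a small error. It had 8078 and 8437 reads in WT and 8669 and 6737 in CbfbKO, or log2 CPM of 11.22 and 11.31 against 11.12 and 11.05. The CbfbKO libraries lay below WT without overlap once scaled to their totals. The log2 fold change was -0.18 (SE 0.051, interval -0.28 to -0.076), or 88.3% of the WT level, and the limma adjusted p of 0.0538 was just over the threshold. In CPM the mean went from 2454 to 2165, so Vim was still among the most abundant transcripts. Cdh2 had 84 and 89 reads in WT and 119 and 90 in CbfbKO, or log2 CPM of 4.66 and 4.77 against 4.96 and 4.85. Its CbfbKO libraries lay above WT without overlap. For Cdh2 the log2 fold change was 0.19 (SE 0.16, interval -0.14 to 0.52, limma adjusted p = 0.656).

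The epithelial markers gave no measurable shift. Cdh1 had 1 and 0 reads in CbfbKO, or 0.141 CPM pooled (exact interval 0.00357 to 0.785), and this interval overlaps that of WT. Epcam had 1 and 0 reads in CbfbKO, the same pooled count of 1 as in WT. Cdh1 took 1 of 210 reads on both cadherins in CbfbKO, or 0.476% (exact interval 0.0121% to 2.62%), against 3 of 176 in WT. The epithelial panel summed to 1.28 and 1.88 CPM in CbfbKO, and the colon epithelial panel to 0.256 and 0 CPM. A gain of either marker to above 0.785 CPM lies outside these counting intervals, and a smaller gain could not be resolved at this depth. The mesenchymal panel summed to 2398 and 2294 CPM in CbfbKO, with both values below WT as for Vim, which carries the sum.

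**Figure D3:**
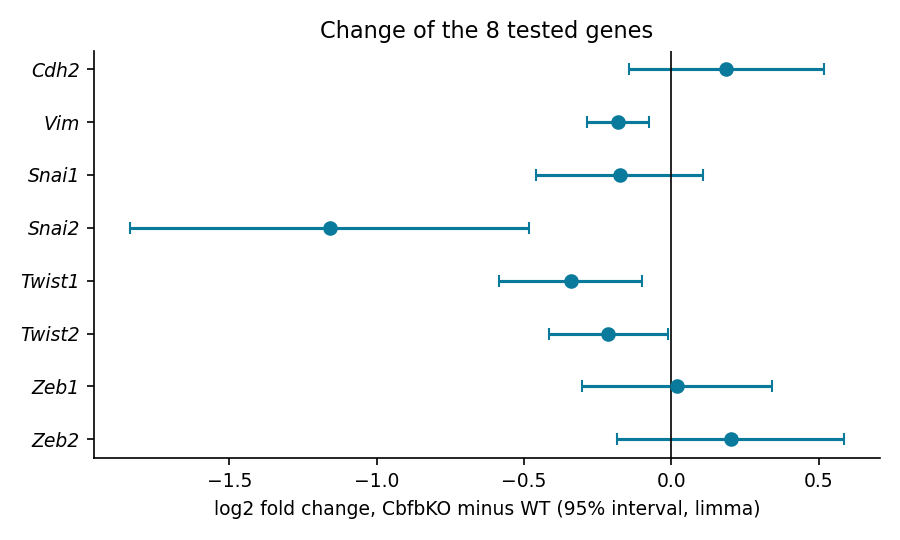
Log2 fold change of the 8 tested genes, CbfbKO minus WT, with 95% intervals from limma that are not adjusted for the number of genes. The intervals of Snai2, Twist1, Twist2 and Vim lie below 0, those of Snai1, Zeb1, Zeb2 and Cdh2 include it, and no gene passed the adjusted threshold.

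Snai2 and Vim stood so near the threshold that the analysis setting decided their call. With voom and limma on the recovered reads, scaled to library totals, both passed (adjusted p = 0.0469 for Snai2 and 0.000711 for Vim), where 1.61% of all tested genes were called lower. Both were also called lower with voom on median-scaled reads (1.93% of tested genes), with libraries centred on their medians (1.54%), with vooma weights (1.39%), with genes required to reach 5 CPM (2.19%) and without WT replicate 1 (1.35%). Neither was called without CbfbKO replicate 1 (adjusted p by limma 0.102 for Snai2 and 0.105 for Vim), CbfbKO replicate 2 (0.382 and 0.318) or WT replicate 2 (0.299 and 0.377). Quantile normalization, no low-value filter and no mean-variance trend called neither as well. With ribosomal RNA left out of the totals, Vim alone was called, and 1.35% of tested genes were lower. Over the alternatives, the limma adjusted p ranged from 0.0144 to 0.790 for Snai2 and from 1.6e-05 to 1 for Vim. It ranged from 0.0850 to 0.431 for Twist1 and from 0.177 to 0.957 for Twist2, which were never called. No member was called higher under any alternative. Snai1, Snai2, Twist1, Twist2 and Vim had negative log2 fold changes in all of them.

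**Figure D4:**
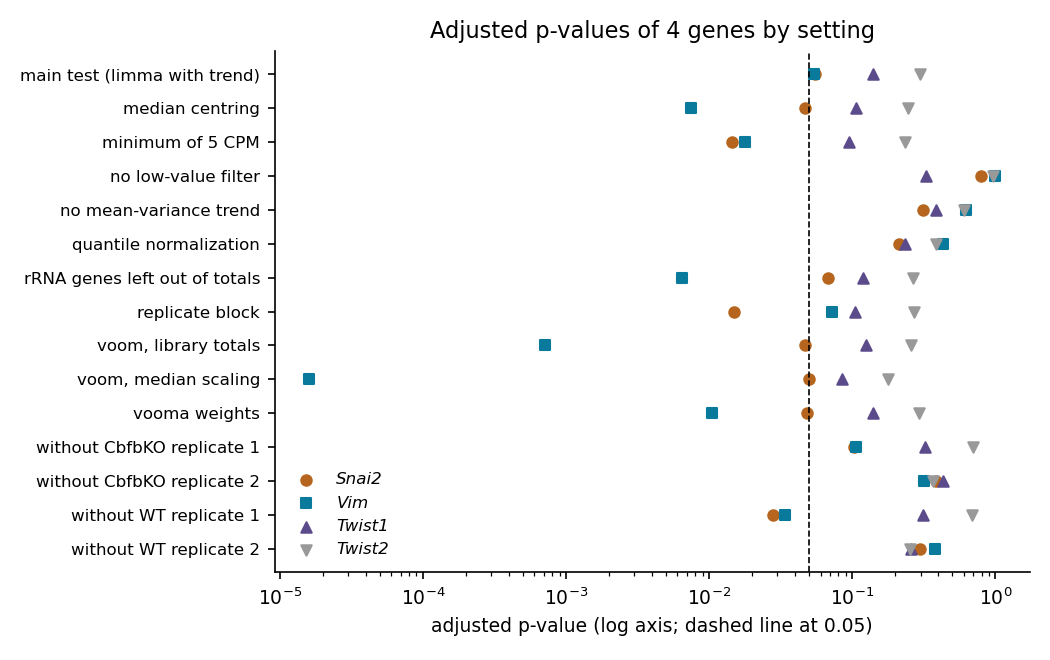
Adjusted p of Snai2, Vim, Twist1 and Twist2 under each analysis setting, on a log axis, with the threshold of 0.05 as a line. Snai2 and Vim lie on either side of the line depending on the setting, and Twist1 and Twist2 stay at 0.0850 or above.

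Other genes of the epithelial and mesenchymal programmes were counted from lists drawn up with some results of these data known, so their counts are descriptions. They are to be read against all tested genes, of which limma called 1.57% higher and 1.25% lower, 14.9% had an unadjusted p under 0.05 in either direction and voom on library totals called 3.72%. Of 43 epithelial junction and keratin genes, 28 had reads and 10 were tested. Only Itga6, an integrin subunit that pairs in hemidesmosomes and in laminin receptors, passed the threshold. It had 197 and 207 reads in WT and 438 and 386 in CbfbKO and rose by 0.95 on the log2 scale (SE 0.099, limma adjusted p = 6.51e-07). The tight junction scaffold gene Tjp1 had 250 and 211 reads in WT and 255 and 233 in CbfbKO, a log2 fold change of 0.017 (limma adjusted p = 0.969). The list's median log2 fold change was 0.11.

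Regulators of the epithelial state were mostly absent. Of 20 listed, 7 had reads and 5 were tested, with none higher and 1 lower. Klf4, a zinc finger factor of differentiating epithelia, had 619 and 615 reads in WT and 528 and 490 in CbfbKO and fell by 0.35 (SE 0.082, limma adjusted p = 0.0161). Without CbfbKO replicate 1 it was not called. The related factor Klf5 had 335 and 307 reads in WT and 461 and 353 in CbfbKO, a log2 fold change of 0.26 (limma adjusted p = 0.150). Foxa1 and Elf3 had under 10 reads in every library, and Esrp1, Esrp2, Ovol1, Ovol2 and Hnf4a had none. Of 21 colon identity genes, 8 had reads and 2 were tested. None passed limma's threshold or an unadjusted p under 0.05, and voom called none. Gpa33 and Ceacam1 had 0 and 1 reads each in WT.

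Mesenchymal and fibroblast genes changed in both directions. Of 42 listed, 37 had reads and 29 were tested, of which 7 rose and 3 fell, where 1.57% of all tested genes rose and 1.25% fell. The list's median log2 fold change was 0.10, against 0.039 over all tested genes. Sparc, a matricellular glycoprotein gene, rose by 0.82 (1316 and 1320 against 2786 and 2150 reads, SE 0.059, limma adjusted p = 1.56e-09). The neural cell adhesion gene Ncam1 rose by 0.56 (359 and 386 against 707 and 471), the fibrillar collagen gene Col5a1 by 0.49 and the tropomyosin gene Tpm2 by 0.39. The integrin genes Itgav and Itgb1 rose by 0.50 and 0.23.

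The 3 that fell included abundant genes. S100a4, the calcium-binding protein also called fibroblast-specific protein, went from 1261 and 991 reads to 373 and 314 (log2 fold change -1.77, SE 0.089, limma adjusted p = 1.26e-12). Col3a1, a fibrillar collagen gene, fell by 0.90 (386 and 354 against 217 and 197). Tpm1, a second tropomyosin gene, fell by 0.67 (3197 and 3192 against 2365 and 1866). The pairs of collagens and of tropomyosins thus moved in opposite directions. Cd44, a hyaluronan receptor often used as a mesenchymal and stem-like marker, had 1311 and 1326 reads in WT and 1540 and 1265 in CbfbKO, a log2 fold change of 0.013 (limma adjusted p = 0.953).

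Of 31 other transcription factors associated with EMT, 24 had reads and 22 were tested, with 4 higher and 3 lower (1.57% and 1.25% of all tested genes) and a median log2 fold change of 0.14. Sox4 rose by 0.85 (347 and 338 against 700 and 601 reads). Runx2 rose by 0.79 (55 and 52 against 108 and 90) and Runx1 by 0.65 (249 and 252 against 455 and 378), and both encode DNA-binding partners of the Cbfb product. Id1, an inhibitor of helix-loop-helix factors, rose by 0.43, while its relative Id2 fell by 0.66 (128 and 119 against 89 and 74). Prrx2, a mesenchymal homeobox gene, had 108 and 76 reads in WT and 20 and 20 in CbfbKO and fell by 2.14 (SE 0.25, limma adjusted p = 3e-06). Sox9 fell by 0.24 (limma adjusted p = 0.0483). The chromatin factor Hmga2 and the inhibitor Id3 were high in WT, with 1773 and 1703 and with 413 and 419 reads, and had log2 fold changes of 0.054 and 0.13 (limma adjusted p = 0.745 and 0.504).

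The cytoplasmic partners of cadherins had many reads, while Cdh1 had at most 2 in any library. Of 9 genes of the cadherin-catenin complex, 6 had reads and were tested, with 1 higher and 1 lower. Vcl, which encodes the actin-binding protein vinculin, fell by 0.64 (409 and 380 against 299 and 235 reads, SE 0.094, limma adjusted p = 0.000105). Afdn, which encodes the junction scaffold afadin, rose by 0.36 (463 and 489 against 716 and 575, limma adjusted p = 0.00868). Ctnnb1, the β-catenin gene, had 990 and 1036 reads in WT and 1359 and 1000 in CbfbKO (log2 fold change 0.13, limma adjusted p = 0.382). Ctnna1, the α-catenin gene, had 527 and 514 against 719 and 524 (0.17, adjusted p = 0.328 by limma). Of 20 other cadherins, 7 had reads and 4 were tested. None passed limma's threshold or an unadjusted p under 0.05, and voom called none. The highest was Cdh13, a cadherin anchored by lipid, with 28 and 29 reads in WT and 42 and 32 in CbfbKO (log2 fold change 0.28). Cdh6 had 20 and 13 WT reads, and Cdh26 and Cdh10 had at most 10 in any library. Cdh2 therefore had more reads in each library than any of the other listed cadherins.

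Of these 21 list genes past the threshold, 10 held with any 1 library left out, among them Itga6, Tpm1, Sparc, Col3a1, S100a4, Prrx2, Sox4, Runx1 and Vcl. The other 11 lost the call at least once. Without CbfbKO replicate 1, Afdn, Col5a1, Id2, Itgav, Itgb1, Klf4, Ncam1, Runx2, Sox9 and Tpm2 were not called (limma adjusted p from 0.0890 to 0.285). Without CbfbKO replicate 2, Afdn, Col5a1, Id1, Id2, Itgav, Itgb1, Runx2, Sox9 and Tpm2 were not called (0.0538 to 0.269). Without WT replicate 1, Afdn, Id2, Itgb1, Sox9 and Tpm2 were not called (0.0639 to 0.149), and without WT replicate 2, Itgav, Itgb1 and Sox9 were not (0.128 to 0.158).

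**Figure D5:**
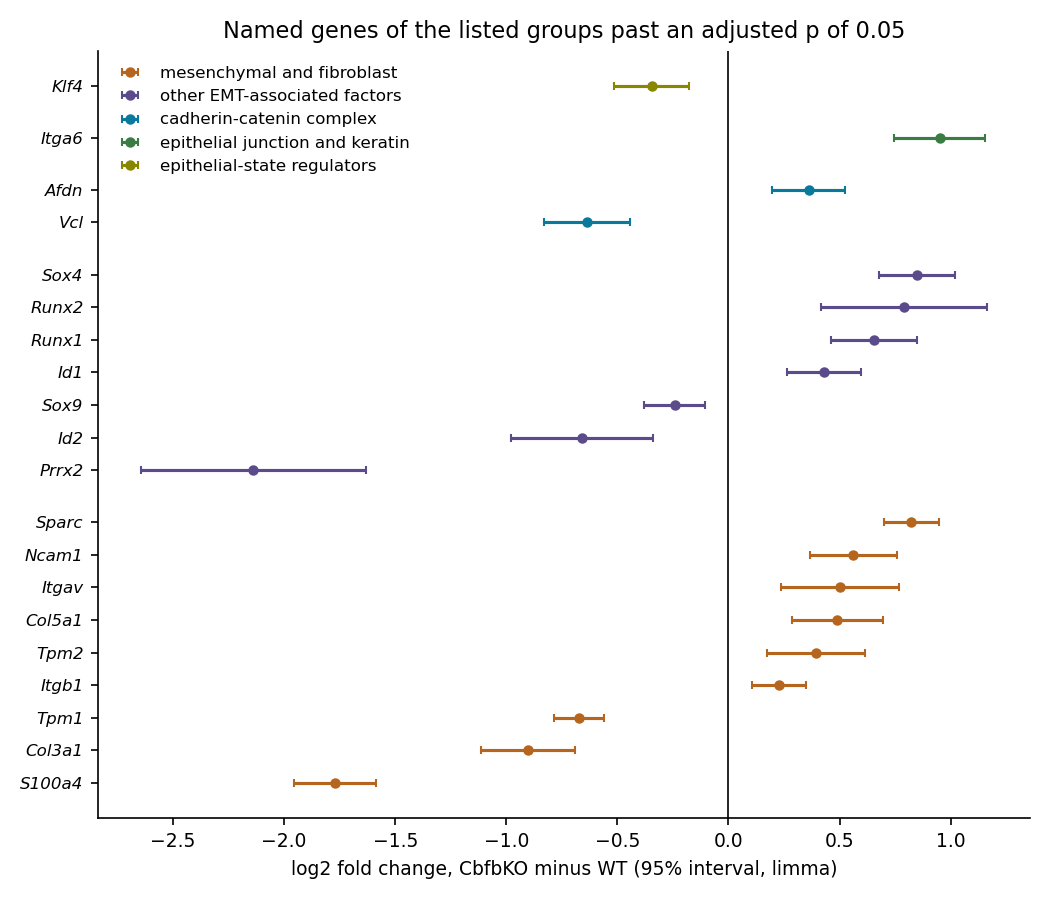
Log2 fold change, CbfbKO minus WT, with 95% limma intervals, of the list genes past the threshold that are named in the text, grouped by list. The mesenchymal and fibroblast genes lie on both sides of 0, from S100a4 at -1.77 to Sparc at 0.82.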

How the data were processed

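MC38 cells were profiled by QuantSeq 3′ mRNA sequencing (single-end). Of 3 replicates collected per group, the authors made libraries from 2, leaving the other out for its RNA quality, and per the labels they checked the loss of the protein by western blot. The authors trimmed reads with cutadapt (1.9), aligned them to mm10 with HISAT2 (2.1.0) and counted genes with featureCounts (2.0.1, versions from the submitters' processing notes). Strand use and annotation release are not given in the sources used here. The authors deposited log2 CPM values scaled to library totals. Reads were recovered from their steps (at least 99.99% within 0.1 of a whole number).

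Differences were tested with limma 3.58.1 (R 4.3.3), with a mean-variance trend, two-sided, on the deposited values, with no added pseudocount. Alternatives were other filters, scalings, variance models, a threshold of 0.01, voom on recovered reads, a replicate block and each library left out. The members and lists were chosen with earlier results of these data known. All members, Cbfb, each list gene past the threshold and up to 4 per list with the highest WT level were to be named, and some of them are not reported here. Positions are from GENCODE M21 and promoters from RefSeq. Tables and figures used Python 3.11.15 and matplotlib 3.10.9.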

Additional observations from a re-analysis of the deposited data

How the results depend on the processing

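The 345 genes past the threshold became 55 with no low-value filter, 83 with quantile normalization, 200 at an adjusted p under 0.01 and 0 with no mean-variance trend (1461 at an unadjusted p under 0.05). With 1 library left out they ranged from 147 (without CbfbKO replicate 1) to 395 (without WT replicate 1), and without CbfbKO replicate 2 they were 152. The lone library of a group is then assumed to vary like the others. The cause was not tested.

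Of the members, 2 (Snai2 and Vim) were called lower with median centring, a minimum of 5 CPM, vooma weights and voom under both scalings, 1 (Vim) with ribosomal RNA left out, and between 0 and 2 with 1 library left out. The log2 fold change of Zeb1 turned to -0.0037 with median centring, -0.021 with quantile normalization, -0.0035 with ribosomal RNA left out and -0.012 with median-scaled voom, and ranged from -0.14 to 0.18 with 1 library left out. That of Zeb2 then ranged from -0.049 to 0.45. Cdh1 and Epcam entered only with no filter (-0.54 and -0.037). Of 308 values for the 21 list genes and Cbfb over 14 alternatives, 223 kept direction and call, 85 lost the call and 0 reversed.

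With the replicate block, 535 genes and 1 member (Snai2, limma adjusted p = 0.0149) were called. Deviations of WT replicate 1 and CbfbKO replicate 1 from their group means correlated at -0.0042, so no shared deviation was seen. This cannot show whether libraries with the same number were prepared together, and the labels do not say. No other pseudocount was run on values deposited in log2. Depth limits Cdh1, Epcam and Snai2 most.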

Other observations

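Vim also had more reads in WT than any gene in a list of 15 others for intermediate filaments, lamins and linker proteins. The list held no keratins. Of these 15 genes, 10 had reads and 9 were tested, with a median log2 fold change of -0.0077. None passed the limma threshold, 2 had an unadjusted p under 0.05 (14.9% of all tested genes did) and voom on library totals called 1 (3.72% of all tested genes). The nuclear lamin gene Lmna had 2554 and 2495 reads in WT and 2661 and 2291 in CbfbKO, a log2 fold change of -0.10 (limma adjusted p = 0.422). The linker gene Plec had 1327 and 1243 WT reads and the lamin gene Lmnb1 had 1164 and 1281, with log2 fold changes of -0.0077 and -0.064. Nes, which encodes the progenitor filament nestin, had 301 and 359 reads in WT and 383 and 345 in CbfbKO (0.076). The neural and glial filament genes Gfap, Ina, Nefl, Nefm and Nefh had no read in any library.

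Genes for corepressors and for the stability of SNAIL and ZEB proteins were nearly all expressed. Of 23 listed, 22 had reads and were tested, with a median log2 fold change of 0.090. None passed the limma threshold, 6 had an unadjusted p under 0.05 (14.9% of all tested genes) and voom called 0 (3.72%). The polycomb gene Suz12 had 1276 and 1271 reads in WT and 1425 and 1246 in CbfbKO (log2 fold change -0.0036). The kinase gene Csnk2a1 (946 and 840 WT reads) and the corepressor gene Ctbp1 (733 and 697) had log2 fold changes of 0.023 and 0.030. The deacetylase gene Hdac2 had 733 and 692 reads in WT and 891 and 803 in CbfbKO, a log2 fold change of 0.18 (limma adjusted p = 0.237).

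Of 22 leukocyte and endothelial genes, 6 had reads and only the macrophage gene Cd68 was tested, with 3 and 0 reads in WT and 6 and 2 in CbfbKO (limma adjusted p = 0.564). None passed the limma threshold or an unadjusted p under 0.05, and voom called 0.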
